A study of Mus musculus with 12 samples.

Results

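The cytosolic ribosomal protein genes were taken as the mouse genes whose symbol is Rpl or Rps with a number, together with Rplp0, Rplp1, Rplp2 and Rpsa. Symbols of this form matched 89 annotated genes, of which 5 are annotated as pseudogenes and were left out. Of the remaining 84 genes, 83 had a probe on the array, 51 of the large and 32 of the small subunit, and Rpl37 had none. The rule used names and no measured value. Of the 83 genes, 81 passed the filter on dim probes, out of 20859 genes tested in all, while Rpl10l and Rpl3l were not well above background in any group and are given no fold change. Fau and Rpl36al also encode ribosomal proteins, but their names fall outside the rule, and they are described with the related translation genes.

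Peritoneal macrophages of wild-type C57BL/6 mice aged 8 weeks, kept as the cells that adhered after plating and then held overnight in serum-free medium, were profiled in 3 groups of 4 arrays each. The cells received vehicle (control), 10 ng/ml of IL4, or the same dose of IL4 together with 50 µM of the plant anthraquinone emodin, and no group received emodin without IL4. Treatment lasted 6 h by the sample descriptions and overnight by the treatment protocol, and the design text names peripheral white cells where the sample labels name peritoneal macrophages. Replicates are termed biological in the design text, with no word on what was separate or on pooling of mice, so p-values measure only how far these samples spread, which may in part be technical.

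Each cytosolic ribosome is built from one copy of nearly every ribosomal protein on a scaffold of ribosomal RNA, and the genes are among the most strongly transcribed of any cell. Their mRNAs begin with a C followed by an unbroken run of pyrimidines, the 5' terminal oligopyrimidine (TOP) motif, through which mTOR signalling controls their translation as a group. IL4 drives macrophages into alternative activation through STAT6 and also through PI3K and mTOR signalling.

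The motif can be seen in the genome sequence where transcription starts. The windows below are from the RefSeq promoter table for GRCm38.p6, read 5' to 3' on the gene's strand. Each holds 35 bases before the annotated start and 20 from it onwards, and capitals mark the pyrimidine tract that begins at the annotated start. Rplp2 (chr7:141447616-141447670, plus strand), Rpl14 (chr9:120571482-120571536, plus strand), Rpl15 (chr14:18270967-18271021, minus strand), Rps6 (chr4:86857348-86857402, minus strand), Rps10 (chr17:27635225-27635279, minus strand) and Rps27 (chr3:90213629-90213683, minus strand) are shown for the motif, and Rpl24 (chr16:55966240-55966294, plus strand), which had the largest emodin difference of all members, is shown because it has no such tract at its annotated start.
Rplp2: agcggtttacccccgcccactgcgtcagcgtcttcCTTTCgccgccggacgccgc
Rpl14: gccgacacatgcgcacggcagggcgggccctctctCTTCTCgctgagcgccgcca
Rpl15: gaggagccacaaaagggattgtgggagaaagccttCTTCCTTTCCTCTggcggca
Rps6: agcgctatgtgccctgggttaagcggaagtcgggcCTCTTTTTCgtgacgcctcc
Rps10: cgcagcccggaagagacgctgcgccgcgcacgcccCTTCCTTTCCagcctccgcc
Rps27: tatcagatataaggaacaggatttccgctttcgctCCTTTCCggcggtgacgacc
Rpl24: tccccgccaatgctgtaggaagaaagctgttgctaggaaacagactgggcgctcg

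Promoter windows of 250 bases before and 50 from the start were held for 63 of the 83 genes, 75 windows in all, against 32851 windows of 27025 genes. A C at the annotated start followed by at least 4 pyrimidines stood in 14 of the 75 windows (18.7%), compared with 2.51% of all windows. With the tract allowed to begin within 5 bases of the annotated start, the shares were 32% and 13.4%. The letters CTTTCC on the gene's strand, which can lie within such a tract, occurred in 37.3% of member windows and 14.1% of all windows. The letters CCGGAAG, the core of an ETS family site, occurred on either strand in 34.7% against 8.86%, and AAGATGGC, the core of a YY1 site, in 8 of the 75 windows against 2.75% of all. The TATA box letters TATAAA on the gene's strand were in 9.33% and 8.32%. These matches describe letters in the windows, and where annotation places a start a few bases off, the tract is missed.

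The arrays differed in overall signal. The 75th percentile of spot intensity was 730 ± 74.0 in control, 776 ± 24.4 in IL4 and 488 ± 31.4 in IL4 plus emodin arrays (SD, n = 4 each), while the median of the added spike-in controls was 1825 to 2491, 1765 to 2538 and 2732 to 3160. A slide of their own held the emodin arrays, while control and IL4 shared a slide, so in every emodin result that follows the slide and the compound cannot be told apart. On that shared slide row 1 held IL4 and row 2 control, so the row and IL4 cannot be told apart. Of the 10 macrophage markers with a probe, 9 were above background on all 12 arrays. Xist was above background on all 12 arrays and the Y-linked Ddx3y, Eif2s3y, Kdm5d and Uty on none, although the labels call 6 arrays male.

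Levels in the following are log2 spot intensity minus the 75th percentile of the array, and a difference is called where limma's Benjamini-Hochberg adjusted p over all 20859 genes is below 0.05. The level of 1 probe is not set against that of another. On this scale, without the replicate number as a block, no ribosomal protein gene was called different between control and IL4 arrays at its brightest probe. Nearly all were called higher in arrays given emodin. The median member level was 8.52, 8.84, 8.70 and 8.66 on the control arrays and 8.55, 8.59, 8.57 and 8.40 on the IL4 arrays. On the emodin arrays it was 9.26, 9.31, 9.36 and 9.31. Every emodin array stood above every other array, and the control and IL4 arrays overlapped.

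Against IL4 alone, 79 of the 81 genes rose with emodin and 0 fell, by a median log2 difference of 0.75 (1.69-fold), with all 81 differences positive. The background was wide: 39.4% of all genes were called higher and 26.5% lower, with a median over all genes of 0.17. The same 79 members had no overlap between the 4 emodin and the 4 IL4 arrays, a pattern held by 36.0% of all genes in that direction. The size of the change varied little among members: 73 lay between 0.5 and 1, 5 above 1 and 3 below 0.5. The large subunit gave 48 of 49 genes called with a median of 0.74, and the small subunit 31 of 32 with a median of 0.78.

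This direction depended on how the arrays were set on a common scale. With quantile scaling, which gives every array the same distribution of intensities, 12 members were called higher and 0 lower, with a median of 0.08, against 29.4% of all genes called higher. With scaling to the spike-in controls, 55 members were called lower and 0 higher, with a median of -0.33, against 80.6% of all genes called lower. The median over all genes moved from 0.17 to 0.02 and -0.91 under these scalings, and the split of all called genes moved from 8218 higher and 5533 lower to 6135 and 6452, and to 732 and 16821. The members' median lay above that of all genes with 75th percentile scaling, and by a smaller margin with quantile scaling. Spike-in scaling and no scaling differ from 75th percentile scaling by 1 value per array. Their margin over all genes is therefore the same by construction and adds no further evidence. The rises of single members given below hold on the 75th percentile scale: of the 81 differences, 63 were positive with quantile scaling and 2 with spike-in scaling. With no scaling between arrays, tried after seeing the data, 2 members were called higher, against 7.07% of all genes, and the median was 0.08 where that of all genes was -0.51.

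**Figure D1:**
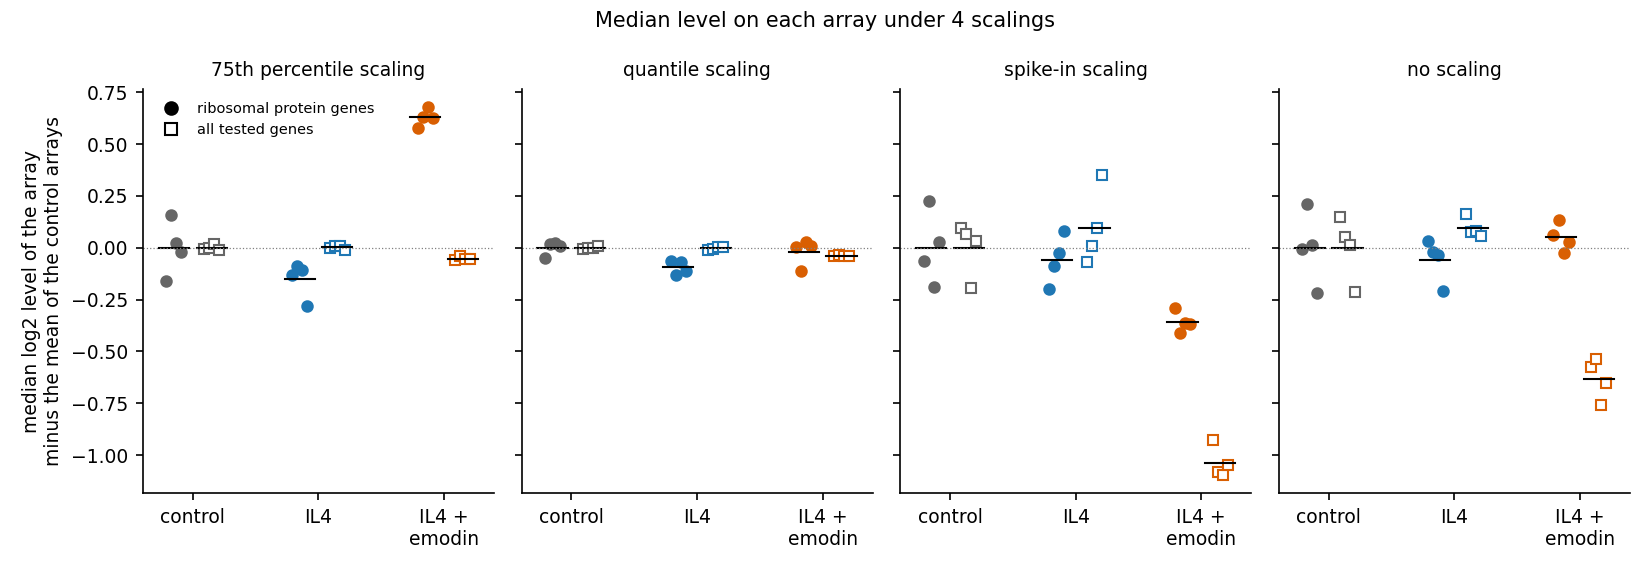
Median log2 level of the 81 ribosomal protein genes (filled circles) and of all tested genes (open squares) on each of the 12 arrays, minus the mean of the 4 control arrays, under 4 scalings; horizontal lines are group means. The emodin arrays' ribosomal protein medians stand above the other groups with 75th percentile scaling, among them with quantile scaling and no scaling, and below them with spike-in scaling, where the all-gene medians lie lower still.

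The members are bright, and bright genes as a class moved the same way. Of the 81 genes, 79 lay in the brightest 10% of all genes by mean level and 36 among the top 200. Among the 2007 other genes of that 10%, 70.9% were called higher and 9.47% lower against IL4, with a median difference of 0.54. With quantile scaling that median was 0.04, and with spike-in scaling -0.54. The part of signal level in the members' difference was not tested.

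**Figure D2:**
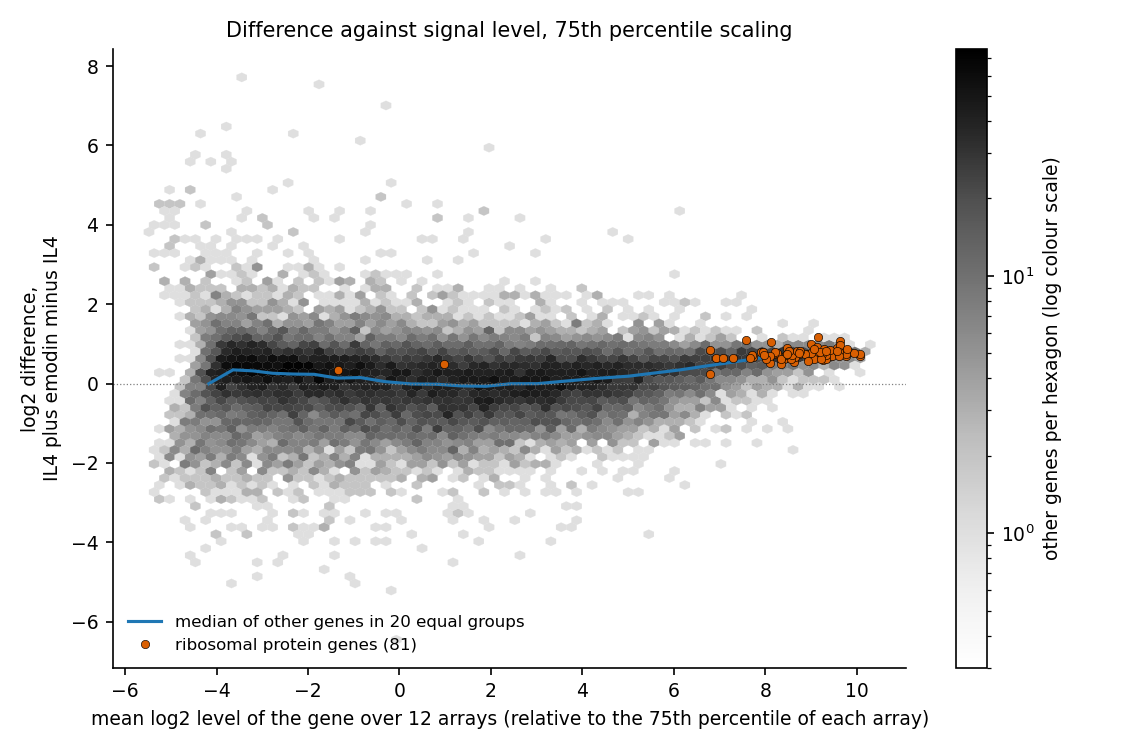
Log2 difference between IL4 plus emodin and IL4 arrays (vertical axis) against the mean log2 level over 12 arrays (horizontal axis), both with 75th percentile scaling; hexagons count the other genes on a log colour scale and points are the 81 members. All but 2 members sit in the brightest 10%, where the other genes also have a median difference of 0.54.

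Further probes were present for 51 of the members. Of these 85 other probes, 83 had the same sign as the gene's brightest probe, 79 were called higher and 0 lower, and their median difference was 0.73. The 23 probes with mean intensity under 50000 had a median of 0.77, with 20 called higher, and the 62 brighter ones a median of 0.73, with 59 called. That limit lies far above the 75th percentile of every array (447 to 813), and probes of the same gene are not independent. The split therefore does not test the part of signal level. Among the probes with opposite sign was a dim one of Rps15a, which gave -0.51 (adjusted p = 0.3 by limma) where the brightest gave 0.81. Ribosomal protein genes have many processed pseudogenes, and a probe may also bind transcripts of such copies. The values of single members and of the set carry that uncertainty, which was not tested.

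Members at the P-stalk, the flexible arm of the large subunit that recruits elongation factors, are given first. Rplp0, the base of the stalk, had levels of 9.38, 9.63, 9.33 and 9.41 on control arrays, 9.52, 9.49, 9.44 and 9.40 on IL4 arrays, and 10.19, 10.29, 10.18 and 10.25 on emodin arrays. The control and IL4 arrays overlapped and all emodin arrays were higher, by 0.76 against IL4 (SE 0.08, adjusted p = 4.25e-06 by limma). A further Rplp0 probe gave 0.27 and was not called (adjusted p = 0.131). Rplp2, which sits on Rplp0 as a dimer with Rplp1, had 9.39, 9.41, 9.30 and 9.26 with IL4 and 10.07, 10.32, 10.03 and 10.13 with emodin, a difference of 0.80. Rplp1 rose by 0.62, from 8.86, 9.08, 9.05 and 8.89 to 9.58, 9.50, 9.87 and 9.40. All 3 stalk genes were therefore called higher on this scale, as were 79 of all 81 members and 39.4% of all genes. With quantile scaling none of the 3 was, Rplp1 being at -0.09, where 29.4% of all genes were called higher.

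On the small subunit, Rps6 is the protein phosphorylated by S6 kinase downstream of mTOR. Its levels were 8.20, 8.57, 8.47 and 8.38 in control, 8.50, 8.59, 8.48 and 8.44 with IL4, and 9.09, 9.47, 9.25 and 9.27 with emodin. It rose by 0.77 against IL4 and by 0.87 against control, with no overlap in either comparison. Rpsa, also known as a laminin receptor precursor, rose by 0.83, although 1 IL4 array (8.62) lay well under the others (9.05, 9.25 and 9.12) and widened that gap. Rps23, at the decoding centre, rose by 0.93, from 8.51 to 8.88 over the IL4 arrays to 9.54 to 9.77 over the emodin arrays. Rps12, a protein of the small subunit's beak, rose by 0.98 (SE 0.25), with IL4 arrays at 9.54, 9.59, 9.58 and 8.31 and emodin arrays at 10.14, 10.29, 10.33 and 10.19. IL4 array 4 was the low one, without it the difference was 0.67 and still called, and the other Rps12 probe gave 0.70.

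Rps3, which lies at the entry of the mRNA channel and also serves in DNA repair and NF-kB signalling, had the largest difference of the small subunit, 1.09 (SE 0.19). Its levels were 7.30, 7.71, 7.71 and 7.45 in control, 6.54, 7.61, 6.88 and 7.19 with IL4, and 8.02, 8.03, 8.30 and 8.24 with emodin. The IL4 arrays scattered more than either other group, and the IL4 mean was the lowest. A dimmer Rps3 probe gave 0.66.

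On the large subunit, Rpl24, which forms a bridge to the small subunit and is mutated in the Belly spot and tail mouse, had the largest difference of all members. Its levels were 8.70, 9.08, 8.96 and 8.83 in control, 8.75, 8.87, 8.73 and 8.43 with IL4, and 9.65, 10.21, 9.75 and 9.81 with emodin. It rose by 1.16 against IL4 (SE 0.14, adjusted p = 1.41e-05 by limma) and by 0.97 against control, and a further probe gave 0.86. Rpl9, near the stalk base, rose by 1.08 from 8.85, 9.43, 9.41 and 9.18 to 10.18, 10.44, 10.32 and 10.24. Both kept their call with quantile scaling, at 0.45 for Rpl24 and 0.33 for Rpl9.

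Rpl7a, a large subunit protein bound to the 28S rRNA, illustrates probe disagreement. Its brightest probe read 7.97, 8.20, 8.08 and 8.09 in control, 7.33, 8.14, 7.30 and 7.69 with IL4, and 8.64, 8.76, 8.64 and 8.61 with emodin, a difference of 1.05 against IL4. Its 3 other probes gave 0.74, 0.35 and 0.07, the last not called (adjusted p = 0.749 by limma). Rpl36 rose by 1.01, with IL4 array 4 at 7.84 while the other IL4 arrays read 8.83, 8.94 and 8.76, and without that array the rise was 0.75, while its other probes gave 0.70 and 0.75.

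**Figure D3:**
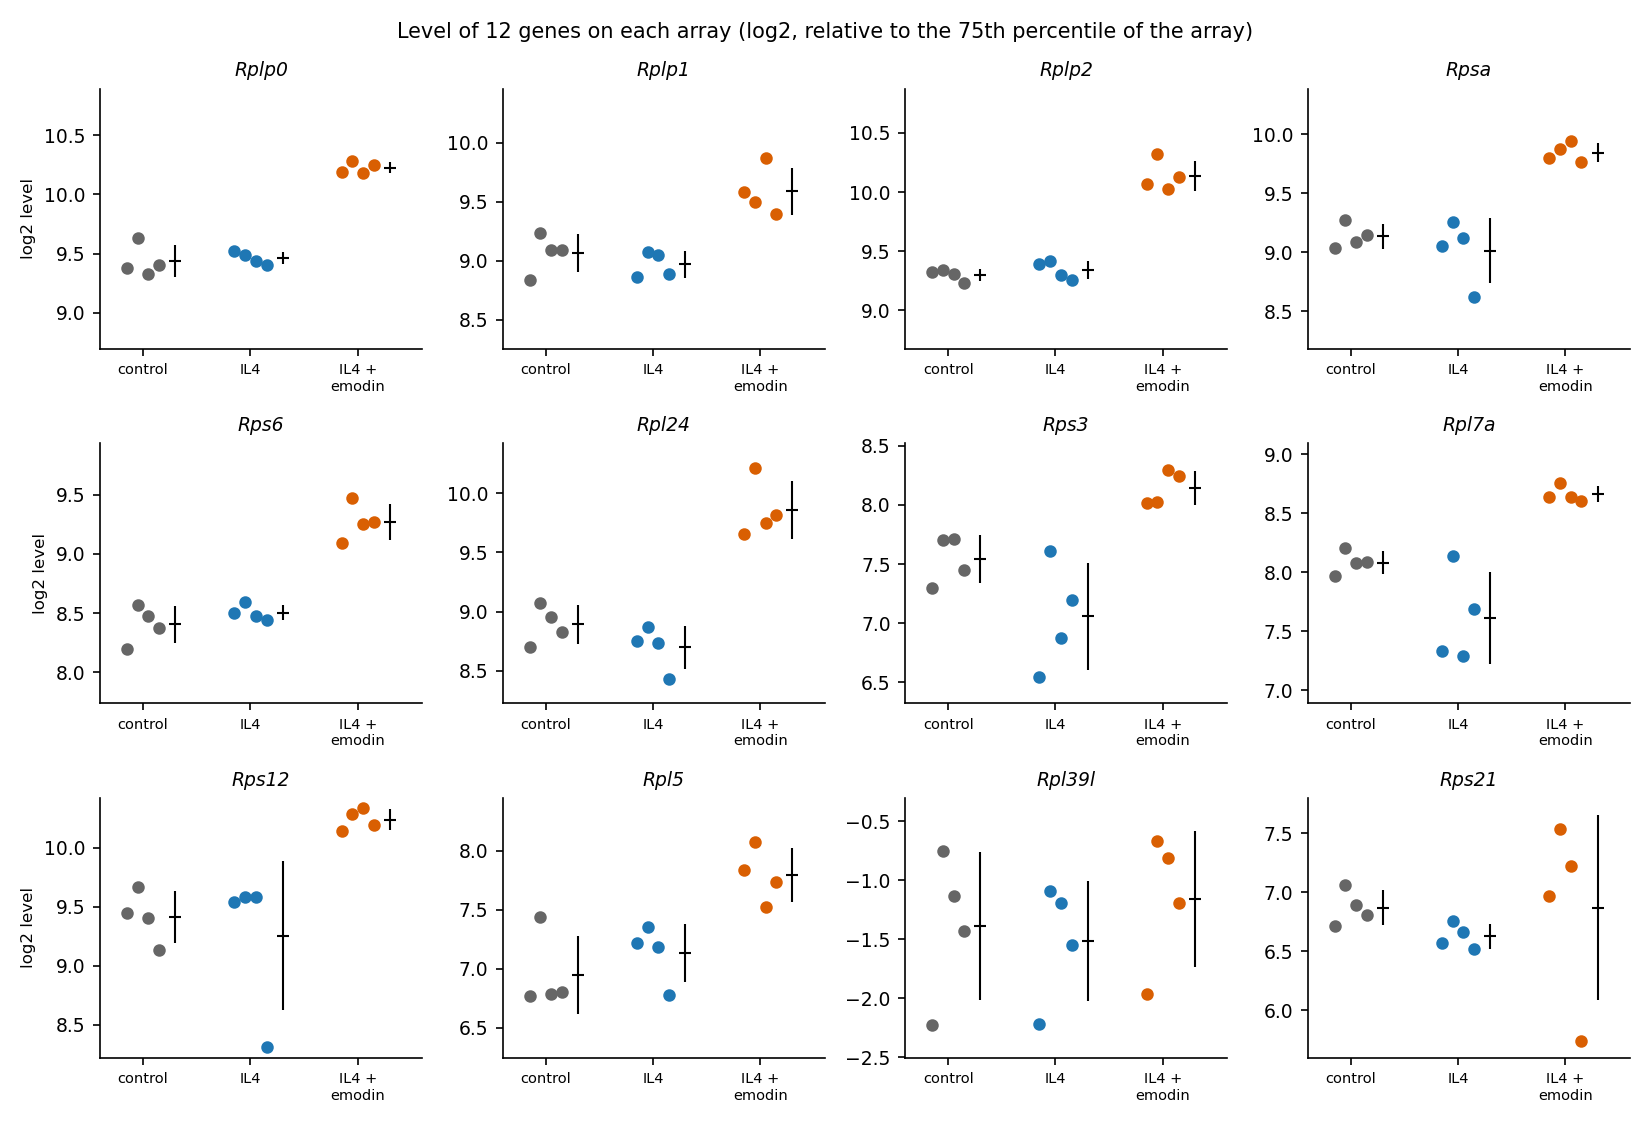
Log2 level with 75th percentile scaling of 12 ribosomal protein genes on each control, IL4 and IL4 plus emodin array; crosses with bars are group mean and SD (n = 4), and each panel has its own vertical axis. Emodin arrays lie above all others for 10 genes, while Rpl39l and Rps21 overlap (emodin array 4 reads 5.74 for Rps21); with spike-in scaling none of the 12 genes except Rpl24 and Rps3 has a positive difference against IL4.

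Free Rpl5, Rpl11 and several other ribosomal proteins bind MDM2, the ubiquitin ligase of p53, when ribosome assembly stalls. All 9 genes of this kind in the list were called higher against IL4, with a median of 0.76, from 0.66 for Rpl5 to 1.09 for Rps3, where 79 of all 81 members and 39.4% of all genes were called higher. Rpl5 had levels of 7.22, 7.36, 7.18 and 6.78 with IL4 and 7.84, 8.07, 7.52 and 7.74 with emodin. Rpl11, which joins the large subunit together with Rpl5 and the 5S rRNA, had 9.18, 9.31, 9.22 and 9.13 with IL4 and 10.03, 10.15, 10.23 and 10.04 with emodin, a rise of 0.90. With quantile scaling 2 of the 9 were called, where 29.4% of all genes were higher.

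Genes mutated in Diamond-Blackfan anaemia, a failure of red cell formation, were all called higher as well, 14 of 14 with a median of 0.72. They ran from 0.55 for Rpl15 to 0.90 for Rpl11, and the same shares over the members (79 of 81) and all genes (39.4%) apply. Rps19, the member most often mutated in that disease, rose by 0.63, from 7.38, 7.54, 7.46 and 7.41 to 7.98, 8.05, 8.14 and 8.15. With quantile scaling 2 of the 14 were called, against 29.4% of all genes.

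The paralogs of core proteins differed in size of change, from 0.36 to 0.84 against IL4. Rpl22l1, the paralog of Rpl22, rose by 0.84 (SE 0.10), from 6.45, 6.54, 6.52 and 6.37 with IL4 to 7.11, 7.39, 7.33 and 7.42 with emodin. Rps27l, a p53 target gene and paralog of Rps27, rose by 0.64. Rpl7l1, the paralog of Rpl7, rose by 0.49, from 0.87, 0.93, 0.65 and 0.73 to 1.21, 1.38, 1.41 and 1.16, one of the smallest differences among the members.

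Under quantile scaling each of these 3 paralogs was still called, at 0.41 for Rpl22l1, 0.17 for Rps27l and 0.53 for Rpl7l1. Under that scaling 12 of the 81 members and 29.4% of all genes were called higher. Rpl7l1 and Rpl39l were the only members outside the brightest 10% of genes. Within that 10%, quantile scaling took the median difference of the other genes from 0.54 to 0.04. Of the 7 core partners (Rpl3, Rpl7, Rpl10, Rpl22, Rpl39, Rps4x and Rps27), all were called with 75th percentile scaling, between 0.61 for Rpl39 and 0.80 for Rps27, and 0 with quantile scaling. With spike-in scaling Rpl7l1 (-0.59), Rps27l (-0.44) and 6 of the 7 partners were called lower, against 80.6% of all genes. The median of the 4 tested paralogs was 0.57, 0.33 and -0.52 with 75th percentile, quantile and spike-in scaling. That of the partners was 0.69, 0.04 and -0.39, so the order of the lists depended on the scaling. At an unadjusted p below 0.05, 15 of all 81 members were higher with quantile scaling. The difference between a paralog and its partner was not tested, and the lists were not matched for signal level. Rpl39l, the paralog of Rpl39 known from the testis, was not called, at 0.36 (SE 0.36, adjusted p = 0.401 by limma). It read -2.22, -1.09, -1.19 and -1.55 with IL4 and -1.96, -0.67, -0.81 and -1.19 with emodin, so the groups overlapped. The emodin array was the higher one at each replicate number, and with that number as a block Rpl39l was called higher (adjusted p = 0.00138 by limma).

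Rps21 was the other gene not called, at 0.24 against IL4 (SE 0.29, adjusted p = 0.482 by limma). It read 6.57, 6.75, 6.66 and 6.52 with IL4 and 6.97, 7.54, 7.22 and 5.74 with emodin. Emodin array 4 stood below every other array, and without it the difference was 0.62 and called (adjusted p = 0.00204).

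Members were also set against the mean of the members on each array, a scale chosen after seeing the data that fixes the members' average difference at about 0 and so shows only departures from it. On it Rpl24 (0.42) and Rpl9 (0.33) were called higher and Rpl15 (-0.19), Rps15 (-0.21), Rpl23a (-0.24) and Rpl7l1 (-0.25) lower, while 75 of 81 were not called. Of all genes, 6.55% were called higher and 63.3% lower on that scale. Rps15, at the head of the small subunit, and Rpl23a, beside the exit tunnel, had differences of 0.53 and 0.51 on the 75th percentile scale.

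**Figure D4:**
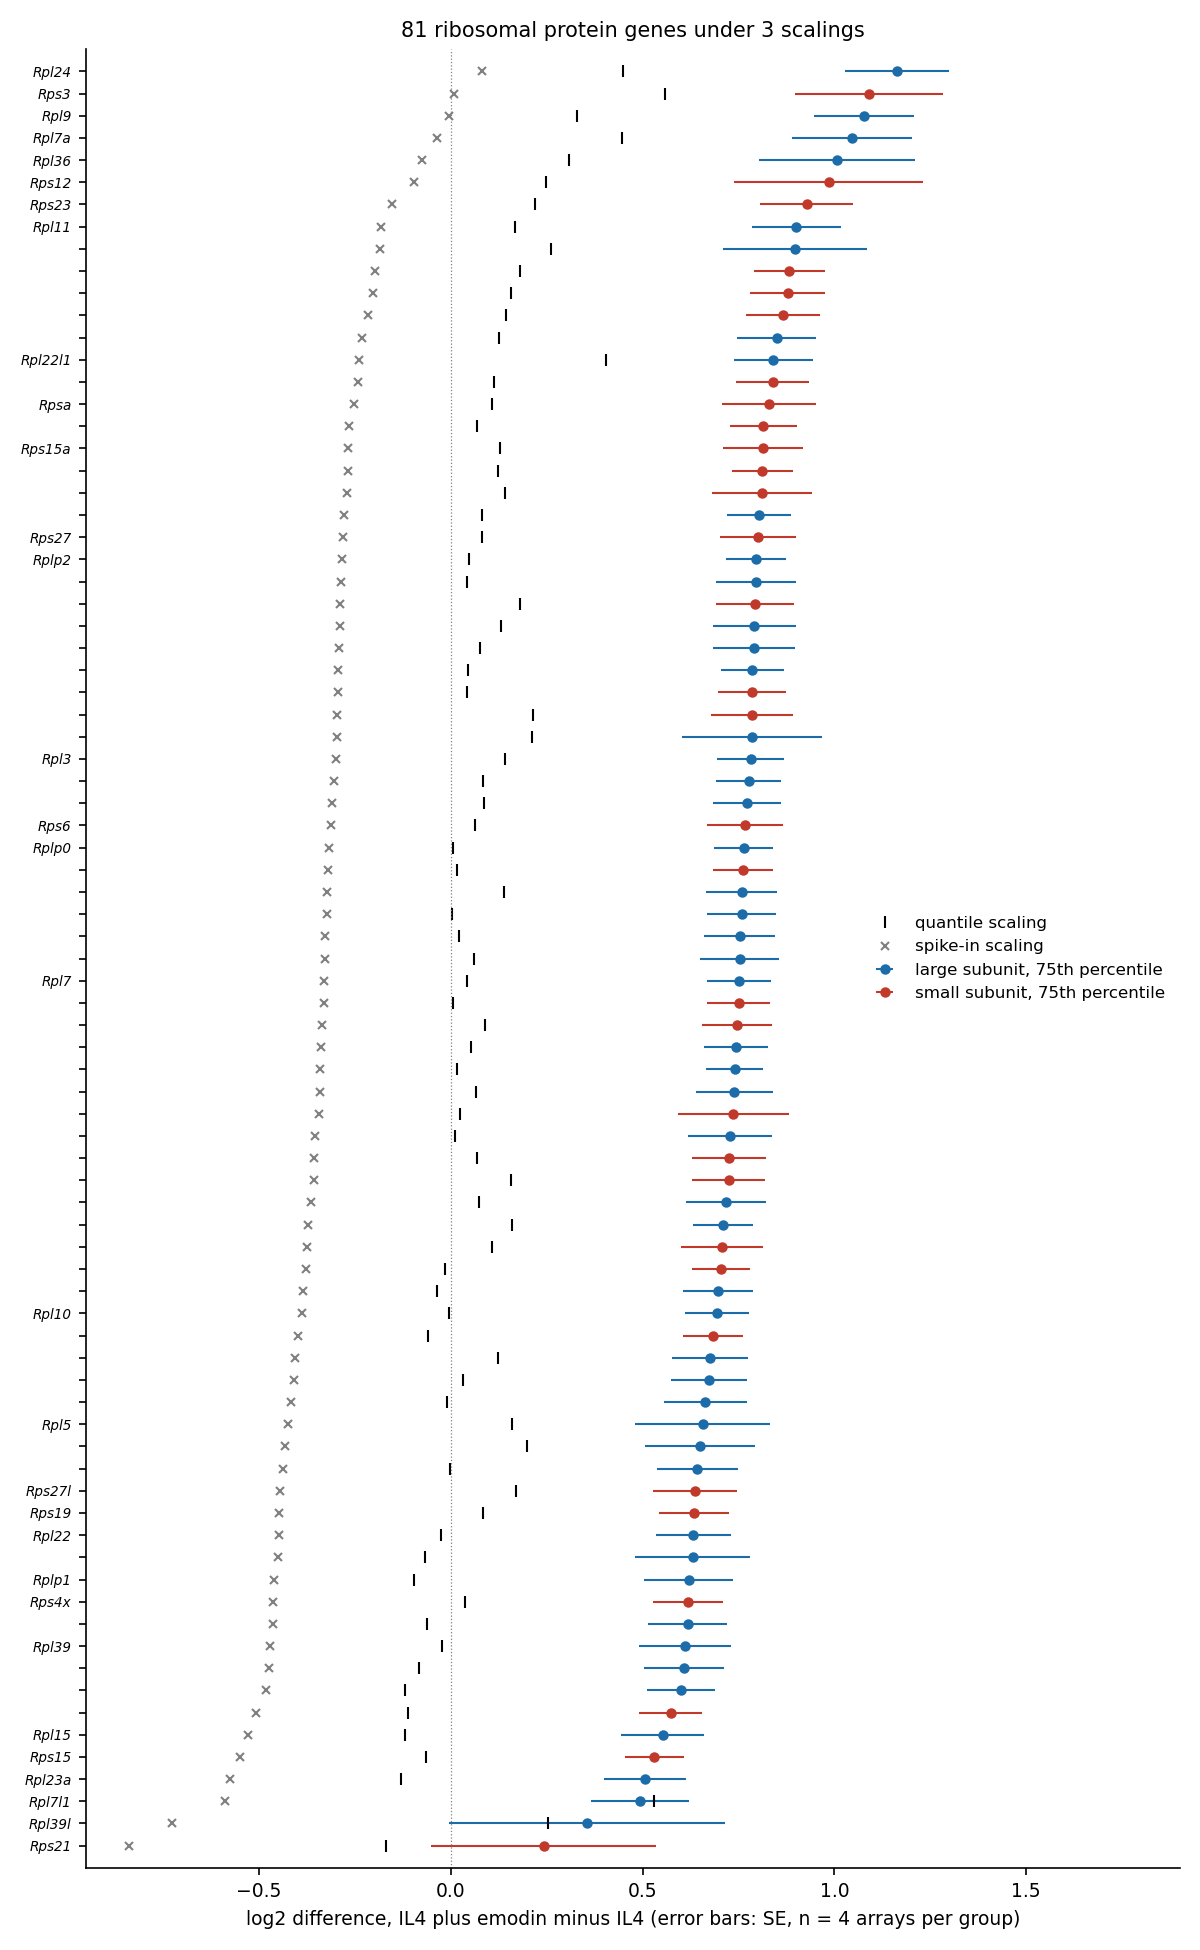
Log2 difference between IL4 plus emodin and IL4 arrays for each of the 81 ribosomal protein genes under 75th percentile, quantile and spike-in scaling, with SE bars (n = 4 arrays per group); genes with a value in the text are labelled. The points of 1 scaling form a narrow band, with medians of 0.75, 0.08 and -0.33; spike-in scaling shifts every gene by the same amount, while quantile scaling does not (Rpl7l1 stands at 0.49 and 0.53).

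With IL4 alone, 0 of the 81 genes were called against control by limma at their brightest probe. That fit left out the replicate number, and with it as a block Rpl7a was called lower (adjusted p = 0.0236 by limma). Without the block, 8.97% of all genes were called higher and 8.57% lower. All genes called split into 1872 higher and 1787 lower, and into 1624 and 708 with spike-in scaling. The members' median difference was -0.06, against -0.03 over all genes, and the range was -0.49 to 0.19. At an unadjusted p below 0.05, 0 were higher and 2 lower, and quantile and spike-in scaling also called 0, with medians of -0.04 and 0.03 and with 1 higher and 3 lower, and 0 and 0, at an unadjusted p below 0.05. Calls did appear under other choices: of the 85 further probes, 2 were called higher, one of Rpl7a (0.77, adjusted p = 0.0175 by limma) and one of Rplp0 (0.75, adjusted p = 0.00439), and with normexp background correction 3 members were called higher and 1 lower.

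The members furthest below control were Rps3, at -0.49 (adjusted p = 0.112 by limma), and Rpl7a, at -0.47 (adjusted p = 0.0609), whose array levels are given above. With the replicate number as a block, Rpl7a was called lower (adjusted p = 0.0236). Without IL4 array 2, which for both genes lay nearest to control, Rpl7a stood at -0.64 (adjusted p = 0.00228) and Rps3 at -0.67 (adjusted p = 0.0177), and both were called. The other probes went against this for Rpl7a: they gave 0.77 (the call given above), 0.23 and -0.05, so the probes of that gene disagree in direction. The dimmer Rps3 probe gave -0.31 and was not called.

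The comparison of emodin-treated arrays with control shares its emodin arrays with the comparison above, and its values are given beside those. It called 79 of 81 members higher and 0 lower, with a median of 0.69 (1.61-fold), against 37.3% of all genes higher, 25.6% lower and a median of 0.15. All genes called split into 7780 higher and 5344 lower, 5587 and 6299 with quantile scaling, and 834 and 16142 with spike-in scaling. The emodin and control arrays did not overlap for 79 members, as for 32.0% of all genes. The largest differences were those of Rpl24 (0.97), Rpl23 (0.91), Rps24 (0.89), Rpl9 (0.89), Rpl14 (0.88), Rpl37a (0.87), Rps6 (0.87) and Rps10 (0.85). Rps10, whose start is shown above with its tract, read 9.44, 9.52, 9.45 and 9.30 in control and 10.24, 10.38, 10.32 and 10.17 with emodin.

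Rpl39l and Rps21 were again not called, Rps21 at -0.00 (adjusted p = 0.997 by limma) and, without emodin array 4, at 0.37 (adjusted p = 0.0317). With quantile scaling 7 members were called higher, against 26.8% of all genes. Spike-in scaling called 41 lower and 0 higher, against 77.4% of all genes lower. With no scaling 3 were higher, against 8.02% of all genes. The medians were 0.06, -0.29 and 0.11. Among the 2007 other genes of the brightest 10%, 70.4% were called higher with 75th percentile scaling, with a median of 0.52.

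Other translation genes whose mRNAs carry the TOP motif also rose on this scale. The counts of this and the following lists stand against the shares over all genes, which were 39.4% higher and 26.5% lower for emodin against IL4 (80.6% lower with spike-in scaling, 29.4% higher with quantile scaling) and 8.97% and 8.57% for IL4 against control. Of 23 such genes, 22 rose with emodin against IL4 and 0 fell, with a median of 0.77. Btf3, which guards nascent chains at the ribosome, rose by 0.97, the initiation factor subunit Eif3e by 0.95, the elongation factor Eef2 by 0.92 and Tpt1 by 0.87. Eef2 read 7.74, 7.70, 7.68 and 7.71 with IL4 and 8.58, 8.82, 8.48 and 8.63 with emodin, with no overlap. Of the ribosomal proteins outside the name rule, Fau rose by 0.73 and Rpl36al stood at 0.33 (adjusted p = 0.071 by limma, and 0.0171, called, with the replicate block). With quantile scaling 14 of the 23 were called higher, with a median of 0.23, and with spike-in scaling 12 were called lower, with a median of -0.31. Against control, IL4 gave 1 higher and 1 lower, Impdh2 at 0.24 (adjusted p = 0.0499) and Nap1l1 at -0.28 (adjusted p = 0.0397), calls that several settings ended.

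The genes that assemble ribosomes were measured beside those that make them up. Of 40 ribosome biogenesis genes, 14 rose with IL4 against control and 0 fell, with a median of 0.24. Rrs1, needed for 5S particle loading, rose by 0.83, from 2.44, 2.62, 2.79 and 2.26 to 3.44, 3.37, 3.40 and 3.22, with no overlap. The nucleolar Nolc1 rose by 0.54, Nol6 by 0.54 and Gar1, of the pseudouridylation particle, by 0.49.

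With emodin against IL4, 10 of these 40 rose and 18 fell, with a median of -0.19, where 39.4% of all genes rose and 26.5% fell. Dkc1, the pseudouridine synthase of that particle, fell by 2.02, from -0.51, -0.54, -0.55 and -0.71 to -2.62, -2.64, -2.25 and -2.89. Sbds, which releases a factor from new large subunits, was at -1.02 and Gar1 at -1.0, both called lower. The nucleolar chaperone Npm1 went the other way, rising by 1.18 from 6.78, 6.75, 6.55 and 6.61 to 7.74, 7.97, 7.83 and 7.90. Under spike-in scaling 38 of the 40 were called lower and 0 higher, against 80.6% of all genes lower, and Npm1 was not called.

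Subunits of RNA polymerase I and III, which transcribe ribosomal and transfer RNA, were listed together with associated factors such as Ubtf, Rrn3, Brf1 and Maf1. Of these 20 genes, 5 were called higher and 10 lower with emodin, with a median of -0.17. With IL4, 0 were called in either direction by limma (2 higher and 1 lower at an unadjusted p below 0.05 in limma). The polymerase III subunits Polr3g (-1.72), Polr3e (-1.41) and Polr3b (-1.25) fell, and Taf1d, of the polymerase I initiation complex, rose by 1.28, a call lost with spike-in scaling, where 18 of the 20 were called lower and 0 higher. A list of 31 genes held initiation factors together with Eif4ebp1 and Eif4ebp2, which are not initiation factors. Of these 31, 15 rose and 9 fell with emodin, with a median of 0.27, and with spike-in scaling 1 was called higher and 27 lower. The cap-binding Eif4e (1.43) and Eif5 (1.22, not called with spike-in scaling) rose, and Eif4ebp2 (-1.22), which sequesters Eif4e, fell. Eif5b stood at -1.83, a dim probe whose call ended with another background correction (-0.06, adjusted p = 0.451 by limma). With IL4, 2 of the 31 rose and 0 fell.

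Among 22 regulators of ribosomal protein mRNAs and of growth, 6 rose and 0 fell with IL4 (3 with quantile and 2 with spike-in scaling), led by Zfp36l1, an RNA-binding protein, at 1.05 and Myc at 0.91. Myc, which activates ribosome biogenesis genes, read 0.44, 0.28, 0.52 and -0.25 in control and 1.18, 1.06, 1.1 and 1.28 with IL4, with no overlap. With emodin against IL4, 6 of the 22 rose and 8 fell, with a median of -0.15, and with spike-in scaling 1 was called higher and 21 lower. Mdm2 rose by 1.66, from 5.57, 5.45, 5.39 and 5.44 to 7.01, 7.29, 7.0 and 7.19, and remained called under quantile (1.29) and spike-in (0.58) scaling. Max, the partner of Myc, rose by 0.77, a direction that spike-in scaling turned (-0.31, called lower), and the mTOR complex subunit Rptor (-0.73), the ETS factor subunit Gabpa (-0.67) and Myc (-0.62) fell.

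**Figure D5:**
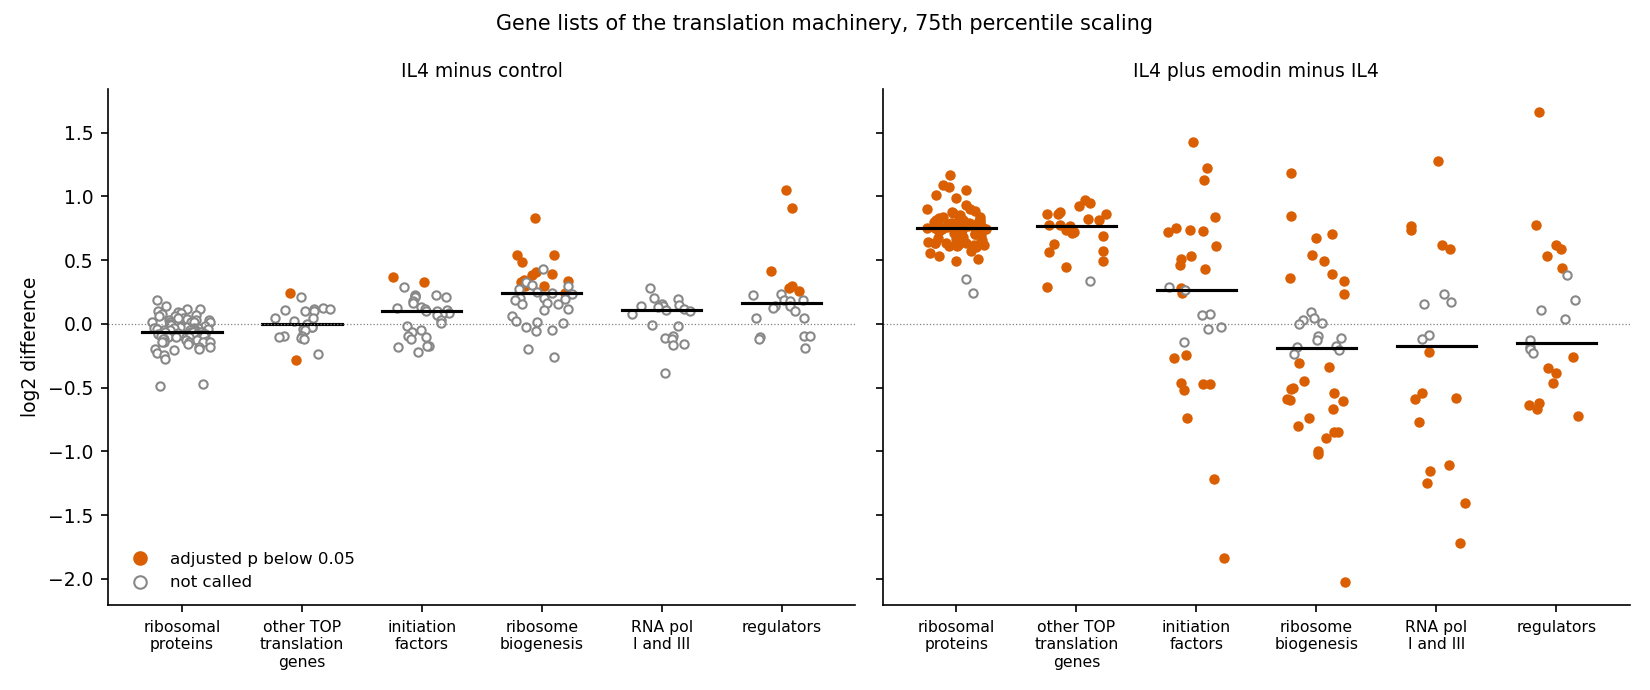
Log2 difference of each tested gene in 6 lists of the translation machinery, for IL4 minus control (left) and IL4 plus emodin minus IL4 (right), with 75th percentile scaling; orange points have adjusted p below 0.05 and black lines are list medians. Ribosomal proteins (0.75) and other TOP genes (0.77) form tight groups on the right, while ribosome biogenesis (-0.19) spreads both ways, and on the left the medians are 0.24 for biogenesis and -0.06 for ribosomal proteins; with spike-in scaling the ribosomal protein and TOP medians on the right turn to -0.33 and -0.31.

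The mitochondrial ribosomal proteins, which form a separate ribosome, served as the nearest comparison by function. Of 77 tested, 23 rose and 20 fell with emodin against IL4, with a median of 0.11, and with spike-in scaling 74 were called lower. Of all genes, 39.4% rose and 26.5% fell, and 80.6% were lower with spike-in scaling. With quantile scaling 19 of the 77 were called higher and 28 lower, with a median of -0.05. Under that scaling 6135 of all 20859 genes were called higher and 6452 lower. With IL4 against control, 2 rose and 0 fell. The difference between the cytosolic and the mitochondrial list was not tested, and the lists were not matched for signal level.

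Markers of other cells were measured on the same arrays, as the range of their summed spot intensity before scaling. Macrophage markers summed to 421970 to 542118 in control, 551142 to 662641 with IL4 and 298084 to 407742 with emodin. The emodin arrays thus lay below both other groups. Their mean 75th percentile of spot intensity was also the lowest, at 488 against 730 in control and 776 with IL4. The 7 B cell markers summed to 993 to 1950, 1133 to 1807 and 308 to 400, again lowest with emodin, with Pax5 above background on no array. Neutrophil markers (9 with a probe, Ngp on no array) gave 19685 to 30187, 15673 to 23184 and 17334 to 30474. T and NK cell markers (8, with Cd3d, Cd3g, Cd8a and Ncr1 on no array) gave 6085 to 7960, 5674 to 6178 and 3707 to 9124. Mast cell markers (6) gave 423 to 1300, 466 to 1574 and 422 to 977, and mesothelial and fibroblast markers (8) gave 15854 to 53570, 17971 to 83486 and 14152 to 58611, with overlap of all groups. The part of these cells in the ribosomal protein values was not tested. In such unscaled sums of bulk RNA, fewer cells of a type, less RNA per cell and lower signal of the whole array cannot be told apart.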

How the data were processed

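Per the labels, total RNA was labelled with Cy3 (Low Input Quick Amp) and read on 12 Agilent arrays. Per the file headers, spot intensity was extracted with Agilent Feature Extraction 10.7.3.1, which subtracts background array by array. The deposited table of log2 values followed the quantile-scaled scanner values centred on each probe's median (r = 1.00).

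Of 55681 probes, 27509 matched a RefSeq symbol through their transcript identifier and 28172 stayed unnamed. Of the 171 probes of the ribosomal protein genes, 166 were kept. Outlier spots were dropped, spots of a probe averaged, log2 intensity was set against the array's 75th percentile, and a probe was kept if all 4 arrays of some group had it well above background (27702 probes). The brightest probe stood for a gene. limma 3.58.1 (R 4.3.3) fitted 3 group means over 12 arrays (9 residual degrees of freedom), two-sided, with Benjamini-Hochberg adjustment over 20859 genes. No spot was saturated, and 4 arrays per group limit the precision.

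The genes named are, per comparison, the 8 members with the largest called differences, the functional subsets, Rpsa, Rps6 and Rps4x, members whose sign or call changes between scalings or probes, and up to 4 called genes of each pathway list. Single values of some genes under this rule are not reported here, although counts and medians include them. Members and lists were chosen with earlier results of these data known, and no list gives independent support. Alternatives were quantile, spike-in and detected-probe scaling, normexp (offset 50, on median spot signal), the deposited table, other filters, probe means, a replicate block, sex as labelled, the compared groups alone, a trended robust fit, and each array left out. No scaling and the ribosomal protein mean as scale were added after seeing the data.

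The replicate number, which is also the column on the slide, paired control and IL4 arrays: their deviations from the group means correlated at 0.31 to 0.52. Emodin replicates 1, 3 and 4 correlated at 0.31 to 0.44 with IL4 and 0.34 to 0.52 with control, and each correlated best with its own number. Replicate 2 correlated at 0.0933 and 0.0556, best with its own number in IL4 but not in control, and fell short of the 0.1 required of every pair. The emodin block is therefore an alternative only. For IL4 against control every pair passed 0.1, but the main fit left the block out there too. On simulated data with 200 of 20814 genes changed, the fit of IL4 plus emodin against IL4 recovered 50.7%, 85.1% and 95.5% of changes of 1.5-fold, 2-fold and 4-fold, with 13 false calls. For IL4 against control the shares were 49.3%, 82.1% and 95.5%, with 11 false calls. Far more genes were called in the measured data: 39.4% higher and 26.5% lower with emodin against IL4. With IL4 alone it was 8.97% and 8.57%. The cutoff set by the adjustment depends on how many genes change. The simulated recovery and false calls therefore do not carry over to the measured comparisons, least of all to those with emodin.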

Additional observations from a re-analysis of the deposited data

Results flagged for a closer look

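Among the 81 ribosomal protein genes, the values of single arrays that stood apart from the other 3 of their group, by Dixon's 95% criterion, numbered 5 in control (6.17% of genes), 5 in IL4 (6.17%) and 3 in emodin arrays (3.70%), where chance marks about 1 in 20 groups. The values are log2 levels relative to the 75th percentile. IL4 array 4 read low for Rpl36 (7.84), Rps12 (8.31) and Rps2 (7.83), and IL4 array 2 stood apart for Rpl27a (8.57) and Rpl28 (7.61). Control array 2 stood apart for Rpl37a (9.65) and Rpl5 (7.44), and control array 1 for Rpl10 (9.55) and Rpl29 (8.96). Emodin array 1 stood apart for Rpl27 (8.64) and Rpl41 (10.21), and emodin array 2 for Rps27 (9.86).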

How the results depend on the processing

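The emodin results depended on the scaling. Against IL4, the number of ribosomal protein genes called went from 79 to 12 with quantile scaling, 10 with the deposited table, 2 without scaling, 55, all lower, with spike-in scaling, and 6 (2 higher, 4 lower) on the members' mean, and their median from 0.75 to 0.077, 0.074, 0.081 and, with spike-in scaling, -0.33. Against control, 79 became 7 with quantile scaling, 7 with the deposited table, 3 without scaling and 41, all lower, with spike-in scaling, and the median 0.060, 0.058, 0.11 and -0.29. With IL4 against control, 0 members were called, but 4 (3 higher, 1 lower) with normexp and 1 each without a filter, with the replicate block and with the trended robust fit, and the median was 0.032 with spike-in scaling. All genes called numbered 3659 with IL4 against control, 2332 with spike-in scaling, 5539 with normexp and 7308 unfiltered. Without the filter, 22744 in place of 13751 genes were called for emodin against IL4 and 19845 in place of 13124 against control. Leaving out 1 array gave 0 to 2 members called and medians of -0.13 to -0.00 with IL4, 79 to 80 and 0.71 to 0.78 for emodin against IL4, and 79 to 80 and 0.63 to 0.75 against control, and the genes called in all were 2890 to 3777, 12972 to 13928 and 12267 to 13027. The replicate block called 5304, 15097 and 14512 genes, and 1, 80 and 80 members. In it Rpl39l (adjusted p = 0.00138) and Rpl36al (0.0171) were called higher against IL4, and Rpl7a lower against control. The other settings (detected-probe scale, all-array filter, probe means, sex, groups alone) left these counts within 1.5 times and the medians within the spread of the arrays. Leaving out saturated probes was not run, since none was saturated. The cause of the changes was not tested.

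Of all 81 members, 63 differences against IL4 were positive with quantile scaling and 2 with spike-in scaling. Against control the numbers were 57 and 0. The list that follows covers only genes named in the text and is not complete. Among those it leaves out, against IL4, are Rps21 with quantile scaling (-0.17) and Rpl39l with spike-in scaling (-0.73). The differences of single genes listed as reversed are as follows. With spike-in scaling and emodin against IL4, they were Btf3 -0.11, Eef2 -0.16, Eif3e -0.13, Fau -0.35, Max -0.31, Rpl10 -0.39, Rpl11 -0.18, Rpl15 -0.53, Rpl22 -0.45, Rpl22l1 -0.24, Rpl23a -0.57, Rpl3 -0.30, Rpl36 -0.075, Rpl36al -0.75, Rpl39 -0.47, Rpl5 -0.42, Rpl7 -0.33, Rpl7a -0.035, Rpl7l1 -0.59, Rpl9 -0.0044, Rplp0 -0.32, Rplp1 -0.46, Rplp2 -0.28, Rps12 -0.096, Rps15 -0.55, Rps15a -0.27, Rps19 -0.45, Rps21 -0.84, Rps23 -0.15, Rps27 -0.28, Rps27l -0.44, Rps4x -0.46, Rps6 -0.31, Rpsa -0.25 and Tpt1 -0.21. With spike-in scaling against control they were Rpl14 -0.11, Rpl23 -0.073, Rpl24 -0.018, Rpl37a -0.12, Rpl9 -0.094, Rps10 -0.14, Rps24 -0.091 and Rps6 -0.12. With quantile scaling and emodin against IL4 they were Rpl10 -0.004, Rpl15 -0.12, Rpl22 -0.025, Rpl23a -0.13, Rpl39 -0.024, Rplp1 -0.095 and Rps15 -0.065, and with the deposited table Rpl10 -0.0041, Rpl15 -0.12, Rpl22 -0.031, Rpl23a -0.13, Rpl39 -0.0299, Rplp1 -0.10 and Rps15 -0.071. Without scaling they were Rpl15 -0.12, Rpl22 -0.0395, Rpl23a -0.17, Rpl39 -0.061, Rpl5 -0.015, Rpl7l1 -0.18, Rplp1 -0.052, Rps15 -0.14, Rps19 -0.037, Rps27l -0.035 and Rps4x -0.054. Rps21 against control ranged from -0.22 without emodin replicate 2 to 0.37 without emodin replicate 4.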
